A study of Mus musculus with 18 samples.

Results

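The genes described here are 30 genes of cholesterol and fatty acid synthesis and of its control by the SREBP transcription factors, followed in mouse mammary organoids grown in 3 media. They were taken by gene symbol from a list of pathway genes. The choice applied no threshold to their values, but it was made with earlier results of these data known. All 30 matched 1 row each among the 55536 genes of the count table. The list holds 18 enzymes of cholesterol synthesis, 4 genes of SREBP regulation and 8 enzymes of fatty acid synthesis. The 30 genes all passed the filter on low counts that left 17092 genes for testing.

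Mammary epithelial organoids were grown from the glands of C57BL/6 mice aged 6 to 7 weeks, embedded in matrigel, a basement membrane gel. The mice were wild type (WT) or lacked RasGRP1, an activator of Ras (RasGRP1-/-, called KO below). For 5 days every culture received DMEM/F12 with insulin, transferrin and selenium, and in addition EGF at 2.5 nM (EGF medium), NGS-Wnt at 0.1 nM with Rspo2 at 8.3 nM (WR medium), or all 3 factors (EGF-WR medium). EGF is a growth factor for epithelial cells, NGS-Wnt is a surrogate ligand that switches on Wnt signalling, and Rspo2 strengthens that signal. Each of the 6 groups of genotype and medium had 3 libraries, 1 in each of 3 batches that the labels name. No group without added factors is among the libraries, so each medium can only be compared with the other two. Insulin was present in all groups. The labels do not say how many mice gave each culture, nor which part of the Rasgrp1 gene is deleted.

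The 18 libraries held 24290097 to 31269899 counts. Rasgrp1 summed to 145 counts over the 9 WT libraries and to 25 over the 9 KO libraries, with 6 to 28 counts in a WT and 0 to 9 in a KO library, near the limit of detection. Markers of mammary epithelium summed to 6530 to 12300 CPM (counts after scaling for library size) in every library. Markers of fat cells, fibroblasts, endothelium and myeloid cells were also present, with no marker of these 4 lists at 0 in all libraries. Most markers of fat cells, fibroblasts and endothelium were called lower in EGF-WR medium, and their values are given beside the results below. In such bulk samples, fewer cells of a type and less RNA per cell cannot be told apart.

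Cells make cholesterol from acetyl-CoA through mevalonate, isoprenoid diphosphates, squalene and lanosterol, and they make fatty acids from the same acetyl-CoA through malonyl-CoA. The genes of both routes are classical targets of the SREBPs, transcription factors that are made as membrane proteins of the endoplasmic reticulum. When membrane sterol is low, SCAP carries them to the Golgi, where proteases release the part that enters the nucleus. When sterol is high, INSIG proteins hold SCAP and the SREBPs back. In the mammary gland the pathway is known for supplying membrane lipid to growing epithelium and fat to milk. RNA counts do not show cleavage of the SREBPs or the activity of the enzymes.

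The SREBPs bind sterol regulatory elements and E-boxes, usually next to sites for the general factors NF-Y and Sp1. Promoter windows of RefSeq (build GRCm38.p6) were found for 23 of the 30 genes, in 28 windows, and the 250 bases before each start were searched on both strands. The 5 stretches that follow are shown because each carries some of the searched boxes. They come from genes of different roles, a SREBP, its inhibitor and enzymes of the early and middle pathway. The stretches of Mvd and Lss carry the NF-Y box but neither a sterol regulatory element nor an E-box. Capitals mark the sterol regulatory element TCACCCCA, the E-box CACGTG, and the NF-Y box CCAAT or its reverse complement ATTGG. Each stretch begins 250 bases before the gene's start in RefSeq. For Hmgcs1 and Mvd it runs up to 1 base before that start. For Srebf2, Lss and Insig1 it was cut just before the start in the count table. That is 4, 18 and 50 bases before the RefSeq start. The RefSeq start of Hmgcs1 lies upstream of the start in the count table.
Srebf2, chr15:82147019-82147265, plus strand: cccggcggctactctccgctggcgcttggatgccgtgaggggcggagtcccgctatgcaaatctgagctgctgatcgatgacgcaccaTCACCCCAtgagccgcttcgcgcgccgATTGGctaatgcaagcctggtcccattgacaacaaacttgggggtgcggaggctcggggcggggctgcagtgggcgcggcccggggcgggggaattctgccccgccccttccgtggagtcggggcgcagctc
Hmgcs1, chr13:119690101-119690350, plus strand: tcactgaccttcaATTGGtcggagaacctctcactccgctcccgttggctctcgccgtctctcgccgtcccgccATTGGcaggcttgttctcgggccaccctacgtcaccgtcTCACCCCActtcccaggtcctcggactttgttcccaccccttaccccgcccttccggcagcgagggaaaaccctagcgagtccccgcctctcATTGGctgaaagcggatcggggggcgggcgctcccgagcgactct
Insig1, chr5:28071162-28071362, plus strand: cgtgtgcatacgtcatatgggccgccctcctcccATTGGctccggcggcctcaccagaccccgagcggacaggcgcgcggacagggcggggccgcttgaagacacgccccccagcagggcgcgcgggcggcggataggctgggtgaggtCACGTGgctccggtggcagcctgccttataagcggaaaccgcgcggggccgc
Mvd, chr8:122443423-122443672, minus strand: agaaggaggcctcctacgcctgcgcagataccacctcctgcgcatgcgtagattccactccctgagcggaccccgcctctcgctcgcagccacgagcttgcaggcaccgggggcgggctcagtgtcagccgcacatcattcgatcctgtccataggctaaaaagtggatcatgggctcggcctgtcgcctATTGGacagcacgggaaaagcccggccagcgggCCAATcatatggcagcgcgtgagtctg
Lss, chr10:76531355-76531587, plus strand: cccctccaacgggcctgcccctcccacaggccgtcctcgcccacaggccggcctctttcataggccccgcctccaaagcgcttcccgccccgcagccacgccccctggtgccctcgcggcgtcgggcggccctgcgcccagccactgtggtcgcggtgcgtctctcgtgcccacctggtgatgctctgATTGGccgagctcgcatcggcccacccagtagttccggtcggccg

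The NF-Y box CCAAT was present in 19 of the 28 windows (67.9%), against 33.8% of the 32851 windows of all genes. Hmgcs1 held 3 such boxes and Mvd 2. The Sp1 box GGGCGG, left in lower case above, was present in 21 windows (75%), against 32.7% of all windows. The sterol regulatory element in its form CACCCCA was present in 3 windows (10.7%, against 6.68% of all), those of Srebf2, Hmgcs1 and Acat2. In its form TCACNCCA, which overlaps the first form in Srebf2 and Hmgcs1, it was present in 3 windows (10.7%, against 3.67%), those of Srebf2, Hmgcs1 and Msmo1. In Srebf2 the element began 162 bases before the RefSeq start and in Hmgcs1 137 bases before it, not counted from the printed ends. The E-box was found in 4 windows (14.3%, against 6.02%), those of Insig1, Hsd17b7, Dhcr7 and Sc5d. These are matches of letters, not sites of binding, and the shares are descriptions.

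In EGF-WR medium most of the 30 genes stood higher than in either of the other media. Averaged over the genotypes, 25 of 30 were called higher in EGF-WR medium against WR medium and none lower, where 11% of all tested genes were called higher and 11.9% lower (edgeR, adjusted p under 0.05). Against EGF medium 27 of 30 were called higher and none lower, where 13.4% of all tested genes were called higher and 14.5% lower. The median log2 change of the 30 genes was 0.62 against WR medium and 0.52 against EGF medium, and that of all tested genes was 0.0010 and 0.0083. Called higher in both comparisons were 23 of the 30 genes, against 3.33% of all tested genes. The 2 comparisons share the EGF-WR libraries, so their counts are not independent.

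Between EGF medium alone and WR medium alone, 6 of the 30 genes were called. Sqle, Msmo1, Srebf2 and Elovl6 were called higher in EGF than in WR medium, and Ebp and Fads2 lower. These 4 and 2 of 30 stand beside 12.9% of all tested genes called higher and 12.5% called lower in that comparison, 25.5% in all. The median log2 change of the 30 genes was 0.075, in a range from -0.62 for Fads2 to 0.66 for Elovl6. Of the 23 genes called above both single media, 19 were not called between EGF and WR medium, and the other 4 were the genes called higher in EGF medium. The fit holds the batch as a term, and these counts depend on it. Without that term 14 genes were called against WR medium, 11 against EGF medium, 10 against both, and 2 between EGF and WR medium. Lost against WR medium were Hmgcs1, Mvk, Idi1, Fdps, Fdft1, Cyp51, Msmo1, Hsd17b7, Sc5d, Insig1 and Stard4. Lost against EGF medium were Hmgcs1, Mvk, Idi1, Fdft1, Sqle, Cyp51, Msmo1, Nsdhl, Hsd17b7, Ebp, Sc5d, Srebf2, Stard4, Acaca, Fasn and Elovl6. Between EGF and WR medium, Sqle, Msmo1, Ebp and Srebf2 were lost. With the batch term but without the libraries of batch 3, 16 were called against EGF medium and 14 against both.

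**Figure D1:**
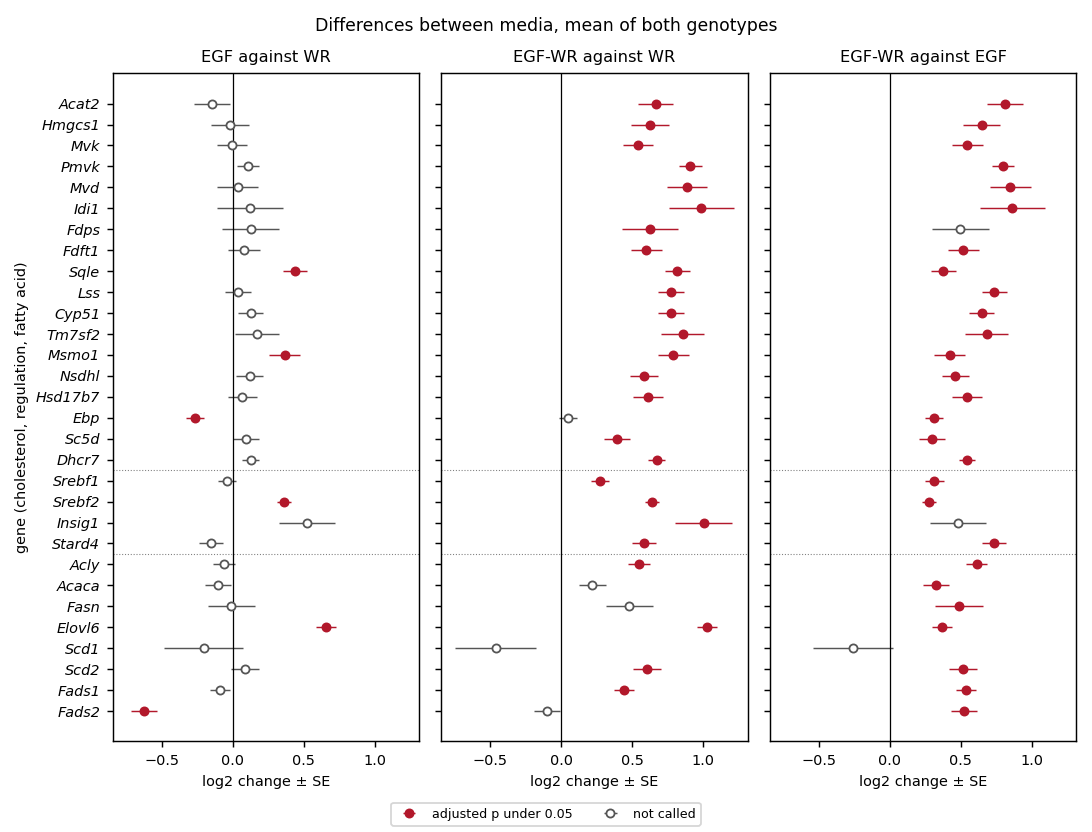
Log2 change of each of the 30 genes in the 3 comparisons of media, averaged over WT and KO, with its standard error (horizontal axis). Filled points are called at an adjusted p under 0.05. In the right panels 25 and 27 genes are called, all to the right of 0, and Scd1 stands left of 0 in all 3 panels.

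The early enzymes turn acetyl-CoA into isoprenoid diphosphates. Acat2, which joins acetyl-CoA units in the cytosol, lies at chr17:12942890-12960747 (GRCm38, as for all gene positions below). In the WT libraries of batches 1, 2 and 3, Acat2 stood at 24.1, 41.1 and 30.3 CPM in WR medium, 25.4, 32.1 and 28.4 CPM in EGF medium and 33, 61.3 and 60.7 CPM in EGF-WR medium. In KO, Acat2 stood at 26.3, 28.6 and 31.6 CPM in WR medium, 20.5, 28.4 and 29.7 CPM in EGF medium and 28.1, 47.2 and 66.9 CPM in EGF-WR medium. Within each batch and genotype the EGF-WR library was above both others, while the lowest EGF-WR library, at 28.1 CPM, lay inside the range of the other media. Acat2 was higher in EGF-WR than in WR medium (log2 change 0.66 ± 0.12, adjusted p = 0.000877) and than in EGF medium (log2 change 0.81 ± 0.12, adjusted p = 0.000167). Of the transcript of Acat2, 45.9% of the 50-base stretches also occur in other genes, mostly Acat3, so its counts may be split with them. Hmgcs1, the synthase that adds the next acetyl unit, ranged over 122 to 361 CPM in WR, 116 to 314 CPM in EGF and 151 to 506 CPM in EGF-WR medium, and rose 1.54-fold against WR (log2 change 0.63 ± 0.13, adjusted p = 0.00382).

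Mvk, Pmvk and Mvd phosphorylate mevalonate and then remove its carboxyl group. Pmvk, at chr3:89454541-89469013, was 1 of 3 genes whose 6 EGF-WR libraries all lay above the 12 libraries of the other media, where 0.24% of all tested genes did. Its WT levels in batches 1 to 3 were 31.1, 46.1 and 44.9 CPM in WR medium, 34.6, 49.8 and 45.4 CPM in EGF medium and 53.8, 87.3 and 90.7 CPM in EGF-WR medium. Its KO levels were 32.1, 35.8 and 47.9 CPM in WR medium, 33.4, 45.8 and 47.1 CPM in EGF medium and 50.8, 73.1 and 97.4 CPM in EGF-WR medium. Pmvk rose 1.88-fold against WR medium (log2 change 0.91 ± 0.078, adjusted p = 3.01e-07) and 1.74-fold against EGF medium (log2 change 0.80 ± 0.078, adjusted p = 2.4e-06). Mvd, at chr8:122433601-122443422, stood in WT at 29.7, 65 and 46.1 CPM in WR medium, 34.7, 58.6 and 40.1 CPM in EGF medium and 52.3, 110 and 98.5 CPM in EGF-WR medium. In KO, Mvd stood at 35.7, 35.8 and 44.9 CPM in WR medium, 31.2, 49.4 and 49.8 CPM in EGF medium and 44.3, 79.1 and 104 CPM in EGF-WR medium. Mvd levels in EGF-WR medium of batch 1, at 52.3 and 44.3 CPM, were within the range of the other media of batches 2 and 3, and above those of their own batch. The gene was higher in EGF-WR than in WR (log2 change 0.88 ± 0.14, adjusted p = 0.000473) and than in EGF medium (log2 change 0.85 ± 0.14, adjusted p = 0.000641). For Mvk the log2 changes were 0.54 ± 0.11 and 0.54 ± 0.11, and both were called.

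Idi1, which interconverts the isoprenoid diphosphates, was the lowest of the 30 genes per length, at 1.6 ± 0.75 CPM per kilobase of exon (SD, n = 18). At chr13:8885501-8892451, it had WT levels of 2.36, 7.66 and 5.51 CPM in WR medium, 3.11, 6 and 4.68 CPM in EGF medium and 6.45, 9.18 and 10.2 CPM in EGF-WR medium. In KO, Idi1 had 0.975, 5.6 and 4.59 CPM in WR medium, 3.71, 4.33 and 4.12 CPM in EGF medium and 4.15, 8 and 10.5 CPM in EGF-WR medium. The spread within a medium was wide, from 0.975 to 7.66 CPM in WR medium, with the lowest value in the KO library of batch 1. Idi1 was called higher in EGF-WR than in WR (log2 change 0.99 ± 0.23, adjusted p = 0.00417) and than in EGF medium (log2 change 0.86 ± 0.23, adjusted p = 0.00903), and both calls were lost without batch 3 (adjusted p = 0.0746 and 0.228). Fdps, which builds farnesyl diphosphate, was called higher against WR medium (log2 change 0.62 ± 0.20, adjusted p = 0.0302) and missed the threshold against EGF medium (log2 change 0.50 ± 0.20, adjusted p = 0.0742). The call against WR medium was lost without batch 1 or batch 3, without the batch term and without any 1 of 6 single libraries. Of its 50-base stretches 86.4% also occur in 8 other genes, so the level of Fdps is uncertain. The share was 30.5% for Idi1, 30.7% for Fdft1 and 13.6% for Hmgcs1.

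The middle enzymes lead from farnesyl diphosphate to lanosterol. Fdft1, the squalene synthase, was higher in EGF-WR medium by 0.60 ± 0.11 (log2, SE) against WR and 0.52 ± 0.11 against EGF, both called, the second not without batch 3. Sqle, the squalene epoxidase at chr15:59315077-59331192, is a rate-controlling enzyme of the later pathway. Its WT levels in batches 1 to 3 were 95.3, 213 and 125 CPM in WR medium, 152, 244 and 177 CPM in EGF medium and 160, 323 and 242 CPM in EGF-WR medium. Its levels in KO were 104, 146 and 143 CPM in WR medium, 127, 217 and 194 CPM in EGF medium and 180, 271 and 274 CPM in EGF-WR medium. Sqle rose in 2 steps, from WR to EGF medium (log2 change 0.44 ± 0.087, adjusted p = 0.0012) and from EGF to EGF-WR medium (log2 change 0.38 ± 0.086, adjusted p = 0.00384). The EGF library was above the WR library and below the EGF-WR library in all 6 sets of batch and genotype. Without batch 3 the second step missed the threshold (adjusted p = 0.0564). Without the batch term both steps missed it (adjusted p = 0.261 and 0.299). Lss, the lanosterol synthase at chr10:76531588-76557138, stood in WT at 65.5, 130 and 86.9 CPM in WR medium, 79.1, 126 and 88.1 CPM in EGF medium and 102, 227 and 178 CPM in EGF-WR medium. In KO, Lss stood at 77.2, 102 and 101 CPM in WR medium, 66.1, 124 and 96.7 CPM in EGF medium and 103, 189 and 182 CPM in EGF-WR medium. Lss rose against WR (log2 change 0.77 ± 0.089, adjusted p = 1.04e-05) and EGF medium (log2 change 0.74 ± 0.089, adjusted p = 2.19e-05), with a difference between EGF and WR medium of 0.038 ± 0.089 that was not called.

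The late enzymes trim and reduce lanosterol to cholesterol. Cyp51 removes a methyl group and ranged over 79.9 to 218 CPM in WR and 116 to 381 CPM in EGF-WR medium, a 1.71-fold difference (log2 change 0.77 ± 0.09, adjusted p = 1.26e-05). Msmo1, the sterol methyl oxidase at chr8:64718139-64733792, had WT levels of 38.3, 100 and 50.2 CPM in WR medium, 56.2, 118 and 67.8 CPM in EGF medium and 55.4, 160 and 103 CPM in EGF-WR medium. In KO, Msmo1 levels were 43.5, 64.8 and 52.9 CPM in WR medium, 44.2, 101 and 67.8 CPM in EGF medium and 59.4, 128 and 111 CPM in EGF-WR medium. Like Sqle it was called higher in EGF than in WR medium (log2 change 0.36 ± 0.11, adjusted p = 0.0223) and in EGF-WR than in EGF medium (log2 change 0.42 ± 0.11, adjusted p = 0.00893). The first of these calls was lost without batch 2 or batch 3 or without any 1 of 7 single libraries, with adjusted p from 0.0515 to 0.104. The second was lost without batch 3 (adjusted p = 0.163). Both were lost without the batch term (adjusted p = 0.549 and 0.43).

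The other late enzymes are Tm7sf2, Nsdhl, Hsd17b7, Ebp, Sc5d and Dhcr7. All except Ebp were called higher in EGF-WR medium against both others, with log2 changes against WR from 0.39 for Sc5d, a sterol desaturase, to 0.85 for Tm7sf2, a sterol reductase. Without batch 3 the calls of Tm7sf2, Nsdhl, Hsd17b7 and Sc5d against EGF medium were lost. The calls of Sc5d against both media were also lost without batch 2, that against WR medium without batch 3, and that against EGF medium without any 1 of 6 single libraries. Dhcr7, which makes cholesterol in the last step of 1 branch, rose 1.59-fold against WR (log2 change 0.67 ± 0.059, adjusted p = 3.99e-07). Ebp, a sterol isomerase, was the exception among the 18 cholesterol genes. Its level was 68.1 ± 9.62 CPM in WR, 56.5 ± 5.35 CPM in EGF and 70.5 ± 10.4 CPM in EGF-WR medium (mean ± SD, n = 6 each). It was lower in EGF than in WR medium (log2 change -0.26 ± 0.063, adjusted p = 0.00454), a call lost without batch 3, and in EGF-WR medium it stood 0.048 ± 0.063 from the WR level, which was not called. In all, 17 of 18 cholesterol genes were called against WR medium and 17 of 18 against EGF medium, the exception there being Fdps.

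**Figure D2:**
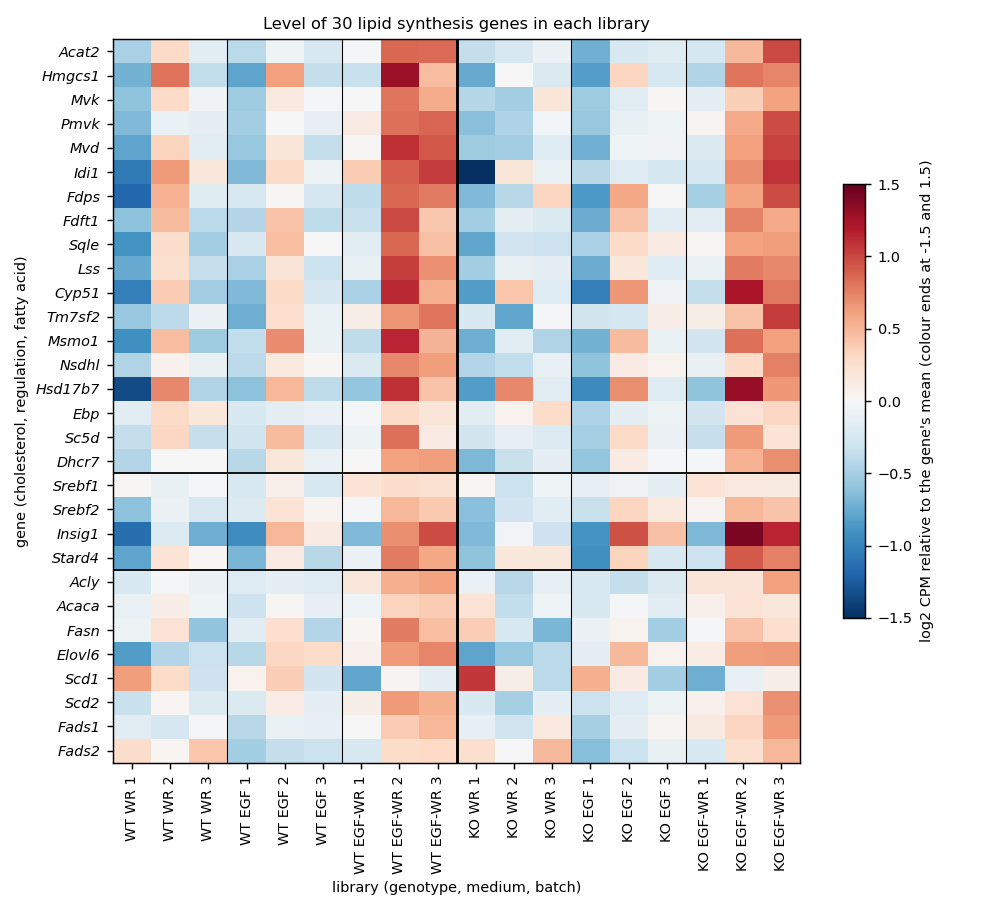
Level of each of the 30 genes (rows) in each of the 18 libraries (columns), as log2 CPM relative to the gene's mean over all libraries, with red above and blue below it. The EGF-WR columns of batches 2 and 3 are the reddest in both genotypes, the columns of batch 1 are bluer than their neighbours in the upper rows, and Scd1 runs against the others in batch 1.

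Of the 4 genes of SREBP regulation, 4 were called higher against WR medium and 3 against EGF medium, the exception being Insig1. Srebf2, at chr15:82147266-82205376, encodes the SREBP that mainly drives cholesterol genes. In WT its levels were 315, 453 and 409 CPM in WR medium, 418, 553 and 495 CPM in EGF medium and 473, 680 and 633 CPM in EGF-WR medium. In KO, Srebf2 levels were 311, 394 and 433 CPM in WR medium, 381, 601 and 533 CPM in EGF medium and 494, 682 and 646 CPM in EGF-WR medium. In all 6 sets the order was WR, then EGF, then EGF-WR medium. Srebf2 was higher in EGF than in WR medium (log2 change 0.36 ± 0.048, adjusted p = 1.78e-05) and in EGF-WR than in EGF medium (log2 change 0.28 ± 0.048, adjusted p = 0.000369), with a 1.56-fold difference between WR and EGF-WR medium (log2 change 0.64 ± 0.048, adjusted p = 5.71e-08). Its standard error of 0.048 was the smallest among the 30 genes. Without the batch term Srebf2 lost its calls in EGF against WR and EGF-WR against EGF medium (adjusted p = 0.119 and 0.245).

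Srebf1, at chr11:60199089-60222581, encodes the SREBP that mainly drives fatty acid genes. Its WT levels were 969, 884 and 943 CPM in WR medium, 817, 1010 and 808 CPM in EGF medium and 1100, 1150 and 1120 CPM in EGF-WR medium. The KO levels of Srebf1 were 974, 762 and 913 CPM in WR medium, 875, 919 and 860 CPM in EGF medium and 1100, 1060 and 1050 CPM in EGF-WR medium. The 6 EGF-WR libraries spanned 1050 to 1150 CPM and lay above all 12 others, which spanned 762 to 1010 CPM. The change was small, 1.21-fold against WR (log2 change 0.27 ± 0.064, adjusted p = 0.00449) and 1.24-fold against EGF medium (log2 change 0.31 ± 0.064, adjusted p = 0.00144), the second not called without batch 3 (adjusted p = 0.0699). The batch took 0.688% of its variance and the medium 67.6%, unlike the cholesterol genes described below. The counts do not separate the transcripts of Srebf1 that start at different promoters.

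Insig1, at chr5:28071363-28078662, encodes the protein that holds SCAP in the endoplasmic reticulum and is itself a classical SREBP target. It had WT levels of 55, 105 and 72.5 CPM in WR medium, 63.2, 170 and 131 CPM in EGF medium and 76.4, 196 and 237 CPM in EGF-WR medium. In KO, Insig1 levels were 76.3, 117 and 97.1 CPM in WR medium, 64.6, 234 and 163 CPM in EGF medium and 75.8, 320 and 267 CPM in EGF-WR medium. The 6 libraries of batch 1 stayed between 55 and 76.4 CPM in every medium, whereas in batches 2 and 3 the EGF-WR libraries reached 196 to 320 CPM. Insig1 was called higher in EGF-WR than in WR medium, 2-fold (log2 change 1.00 ± 0.20, adjusted p = 0.00348), but not against EGF medium (log2 change 0.48 ± 0.20, adjusted p = 0.0951). The first call was lost without batch 2 (adjusted p = 0.0845) or batch 3 (0.124). Without batch 1 the second comparison was called (log2 change 0.55, adjusted p = 0.00572), and so was EGF against WR medium (0.83, adjusted p = 0.000447), which with all libraries was 0.52 ± 0.20 (adjusted p = 0.0791).

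Stard4, at chr18:33199355-33213862, encodes a carrier that moves sterol between membranes. Its WT levels were 30.6, 61 and 53.5 CPM in WR medium, 32.9, 57.7 and 39.7 CPM in EGF medium and 49.9, 90.7 and 79.3 CPM in EGF-WR medium. In KO, Stard4 levels were 34.9, 59.3 and 59.8 CPM in WR medium, 28.1, 67 and 45.4 CPM in EGF medium and 42.9, 100 and 89.2 CPM in EGF-WR medium. The EGF-WR library was the highest of its batch and genotype in all 6 sets. Stard4 rose against WR medium (log2 change 0.58 ± 0.084, adjusted p = 6.57e-05) and against EGF medium (log2 change 0.73 ± 0.084, adjusted p = 1e-05). Both calls were lost without the batch term (adjusted p = 0.198 and 0.0886). Between EGF and WR medium its difference of -0.15 ± 0.085 was not called.

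**Figure D3:**
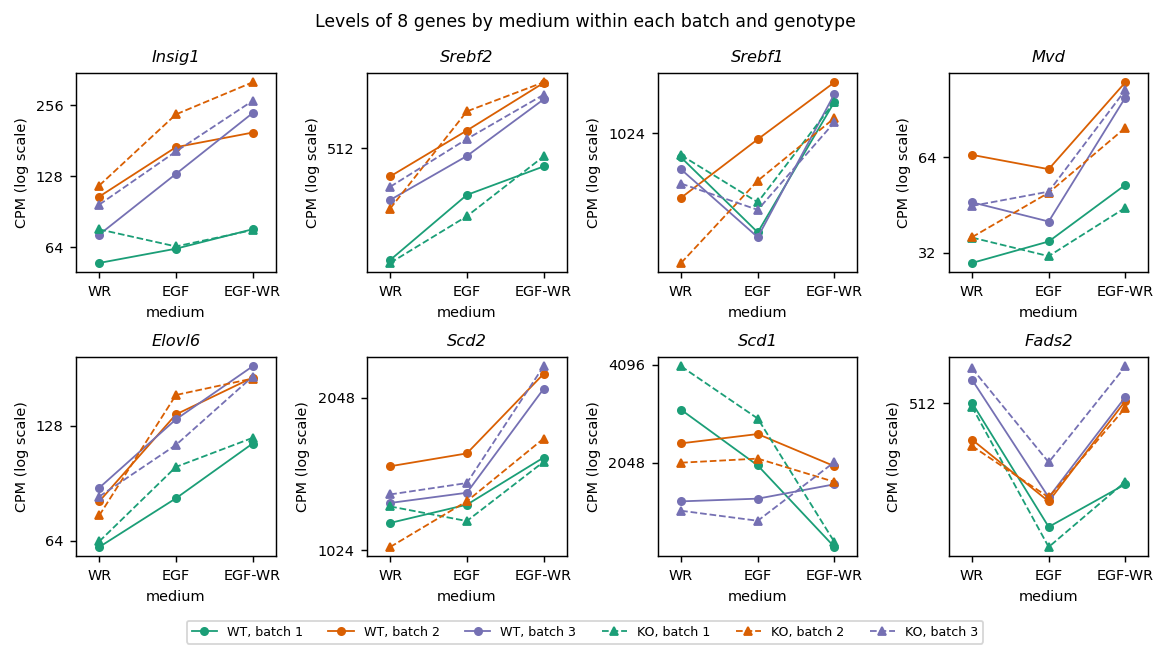
CPM of 8 genes in WR, EGF and EGF-WR medium (horizontal axis), 1 line for each batch and genotype, on a log scale. Srebf2 and Elovl6 climb from medium to medium in all 6 lines, Insig1 is flat in batch 1 at 55 to 76.4 CPM, Fads2 dips in EGF medium, and Scd1 falls to 1130 and 1170 CPM in the EGF-WR libraries of batch 1.

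Fatty acid synthesis starts from citrate. Acly, which splits citrate into acetyl-CoA, rose 1.46-fold against WR and 1.53-fold against EGF medium (log2 change 0.55 ± 0.076, adjusted p = 4.74e-05 and log2 change 0.61 ± 0.076, adjusted p = 2.21e-05), and its 6 EGF-WR libraries, at 441 to 597 CPM, lay above all others, which ended at 386 CPM. Acaca, the carboxylase that makes malonyl-CoA, was called against EGF medium (log2 change 0.32 ± 0.093, adjusted p = 0.0149) but not against WR medium (log2 change 0.22 ± 0.093, adjusted p = 0.104), and the first call was lost without batch 3. Of its 50-base stretches 52.6% also occur in the predicted gene Gm5182. Fasn, the synthase that builds palmitate, behaved likewise, with log2 change 0.49 ± 0.17, adjusted p = 0.0478 against EGF medium and log2 change 0.48 ± 0.17, adjusted p = 0.061 against WR medium. The call of Fasn against EGF medium lay close to the threshold and was lost in most fits that left out a library.

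Elovl6, which lengthens palmitate, had the largest log2 change of the 30 genes against WR medium. The gene lies at chr3:129532355-129638495. Its WT levels were 61.7, 81.2 and 88.1 CPM in WR medium, 82.7, 137 and 133 CPM in EGF medium and 115, 171 and 183 CPM in EGF-WR medium. In KO, Elovl6 levels were 63.8, 74.6 and 83.6 CPM in WR medium, 99.9, 154 and 114 CPM in EGF medium and 119, 170 and 172 CPM in EGF-WR medium. Elovl6 ranged over 61.7 to 88.1 CPM in WR and 115 to 183 CPM in EGF-WR medium. Elovl6 rose 1.58-fold from WR to EGF medium (log2 change 0.66 ± 0.071, adjusted p = 2.02e-06), 1.29-fold from EGF to EGF-WR medium (log2 change 0.37 ± 0.071, adjusted p = 0.000895) and 2.03-fold from WR to EGF-WR medium (log2 change 1.02 ± 0.071, adjusted p = 2.61e-08).

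Scd1 and Scd2 encode desaturases that turn stearate and palmitate into oleate and palmitoleate, and they lie near each other on chromosome 19. Per length they were the most abundant of the 30 genes, at 417 ± 147 and 276 ± 70.4 CPM per kilobase (SD, n = 18). Scd2, at chr19:44293676-44306864, had WT levels of 1160, 1500 and 1270 CPM in WR medium, 1260, 1590 and 1330 CPM in EGF medium and 1560, 2280 and 2130 CPM in EGF-WR medium. In KO, Scd2 levels were 1250, 1040 and 1320 CPM in WR medium, 1170, 1280 and 1390 CPM in EGF medium and 1530, 1700 and 2360 CPM in EGF-WR medium. Scd2 was highest in EGF-WR medium in all 6 sets and was called against WR (log2 change 0.60 ± 0.10, adjusted p = 0.000347) and EGF medium (log2 change 0.51 ± 0.10, adjusted p = 0.00118).

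Scd1, at chr19:44394451-44407709, did not follow. Its WT levels were 2980, 2350 and 1560 CPM in WR medium, 2010, 2510 and 1590 CPM in EGF medium and 1130, 2000 and 1760 CPM in EGF-WR medium. In KO, Scd1 levels were 4050, 2050 and 1460 CPM in WR medium, 2800, 2110 and 1360 CPM in EGF medium and 1170, 1790 and 2060 CPM in EGF-WR medium. In batch 1 the EGF-WR libraries were the lowest of all 18, at 1130 and 1170 CPM, after 2980 and 4050 CPM in WR medium, while in batch 2 they stood at 2000 and 1790 CPM, below their WR libraries, and in batch 3 above them. Scd1 was the only one of the 30 genes with a negative value in both comparisons of EGF-WR medium, -0.46 ± 0.28 against WR (adjusted p = 0.298) and -0.26 ± 0.28 against EGF (adjusted p = 0.561), neither called. Without batch 1 the 2 values were 0.067 and 0.046. Fat cells express Scd1 strongly, and the fat cell markers summed to 1290 and 2110 CPM in the WR libraries of batch 1 and to 161 and 236 CPM in its EGF-WR libraries. In batch 2 the same sums were 1970 and 1870 CPM in WR and 515 and 435 CPM in EGF-WR medium, and in batch 3 they were 548 and 394 CPM in WR and 83.5 and 80.6 CPM in EGF-WR medium. The part of the fat cell markers in the level of Scd1 was not tested. Scd1 and Scd2 share 4.66% and 4.01% of their 50-base stretches with other genes, mostly with each other.

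Fads1 and Fads2, neighbours on chromosome 19, encode the desaturases that make long polyunsaturated fatty acids. Fads1, at chr19:10182888-10196870, had WT levels of 439, 414 and 484 CPM in WR medium, 369, 461 and 452 CPM in EGF medium and 491, 643 and 697 CPM in EGF-WR medium. In KO, Fads1 levels were 454, 399 and 546 CPM in WR medium, 348, 444 and 507 CPM in EGF medium and 539, 615 and 767 CPM in EGF-WR medium. Fads1 was highest in EGF-WR medium in all 6 sets and rose by 0.44 ± 0.07 (log2, SE) against WR (adjusted p = 0.000154) and 0.54 ± 0.07 against EGF medium (adjusted p = 3e-05). Fads2, at chr19:10064164-10101503, had WT levels of 513, 437 and 567 CPM in WR medium, 299, 334 and 340 CPM in EGF medium and 360, 517 and 526 CPM in EGF-WR medium. In KO, Fads2 levels were 504, 425 and 596 CPM in WR medium, 274, 340 and 396 CPM in EGF medium and 364, 502 and 601 CPM in EGF-WR medium. Fads2 ranged over 274 to 396 CPM in EGF and 425 to 596 CPM in WR medium. Fads2 was thus lower in EGF than in WR medium (log2 change -0.62 ± 0.092, adjusted p = 0.000108) and higher in EGF-WR than in EGF medium (log2 change 0.52 ± 0.092, adjusted p = 0.000637), with no call between EGF-WR and WR medium (log2 change -0.10 ± 0.092, adjusted p = 0.497). In all, 4 of 8 fatty acid genes were called higher against WR medium and 7 of 8 against EGF medium.

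The genotypes were also taken apart. In WT 21 of 30 genes were called higher in EGF-WR medium against WR medium (4.92% of all tested genes) and 21 against EGF medium (6.85%). In KO the counts were 22 (6.1%) and 22 (5.17%). No gene was called lower, where 5.82% and 8.78% of all tested genes were in WT and 6.65% and 6.48% in KO. Between EGF and WR medium, 3 genes were called higher and 1 lower in WT, where 8.52% of all tested genes were called higher and 6.92% lower (15.4% in all). In KO 3 were higher and 2 lower, where 7.55% were called higher and 5.94% lower (13.5% in all). Sqle, Srebf2, Elovl6 and Fads2 were called in both genotypes, and Ebp in KO.

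These counts within a genotype rest on 3 libraries a group and moved with single libraries. Without batch 3, the WT counts fell to 8 against WR and 4 against EGF medium, and the KO counts to 9 and 3. The WT count against WR medium was 12 without the WR library of batch 3 and 12 without the EGF-WR library of batch 2. The WT count against EGF medium was 9 without the EGF library of batch 3, 11 and 13 without the EGF-WR libraries of batches 2 and 3, and 13 without batch 2. The KO count against WR medium was 13 without the EGF-WR library of batch 3. The KO count against EGF medium was 9, 12 and 8 without the EGF libraries of batches 1, 2 and 3, 14 and 7 without the EGF-WR libraries of batches 1 and 3, and 13 without batch 1. Between EGF and WR medium the count was 2 in either genotype without batch 3, and in KO 3 without any 1 of the EGF libraries. Without the batch term the counts against WR and EGF medium were 2 and 1 in WT and 2 and 0 in KO, and that between EGF and WR medium was 0 in both.

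Loss of RasGRP1 gave no call among the 30 genes. In edgeR, 0 of 30 were called between KO and WT in EGF, EGF-WR and WR medium and over the mean of the media, where 0.0702%, 0.0819%, 0.0819% and 0.339% of all tested genes were called. At an unadjusted p under 0.05 the counts were 0, 0, 1 and 0, and DESeq2 also called 0 of 30 in each. The 1 gene was Dhcr7 in WR medium, with a log2 difference (KO minus WT) of -0.24 ± 0.084 and an adjusted p of 0.894. Over the mean of the media the differences ran from -0.30 ± 0.19 for Idi1 to 0.32 ± 0.16 for Insig1, and were 0.0067 ± 0.039 for Srebf2 and 0.0055 ± 0.058 for Elovl6. The 3 tests of whether the response to a medium differed between the genotypes (interaction) called 0 of 30 genes in edgeR and 0 of 30 in DESeq2, with 0 at an unadjusted p under 0.05, and edgeR called 0% of all tested genes. For EGF-WR against WR medium the 30 interactions ran from -0.22 for Fasn to 0.28 for Idi1 on the log2 scale.

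The sign of the KO difference changed with the batch. In WR medium the median log2 ratio of KO to WT over the 30 genes was 0.13 in batch 1, -0.39 in batch 2 and 0.081 in batch 3, with 25, 2 and 21 genes above 0. In EGF-WR medium it was 0.0012, -0.22 and 0.13. In EGF medium it was -0.13, -0.089 and 0.097. Batch 2 was thus below 0 in all 3 media and batch 3 above 0. Each ratio compares 1 library with 1 other and has no replicate.

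The cholesterol genes varied with the batch as well as with the medium. The median level of the 18 cholesterol genes, relative to each gene's mean, was -0.47 in batch 1, 0.33 in batch 2 and -0.051 in batch 3 (log2). In the median gene of the 30, the batch took 40.3% of the variance of log2 CPM, the medium 42.7% and the genotype 1.01%. Among the 18 cholesterol genes the medians were 44.8% for the batch and 38.2% for the medium. For all tested genes the medians were 30.4%, 20.8% and 2.05% for batch, medium and genotype. Hsd17b7, a sterol ketoreductase, had the largest share for the batch, 81.4%, with 15.3 to 28.5 CPM in the WT WR libraries of batches 1 and 3 and 64.1 CPM in that of batch 2. Among the 8 fatty acid genes the medians were 19.1% for the batch and 61.3% for the medium. The labels do not say what a batch is beyond its number.

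Within batches the EGF-WR libraries were again the highest for most genes. In 21 of 30 genes the EGF-WR library was above both other libraries of its batch and genotype in all 6 sets, where 4.59% of all tested genes were, in 7 genes in 5 sets, and in Scd1 and Fads2 in 2 and 3 sets. Against WR medium, the median log2 ratio in batches 1, 2 and 3 was 0.46, 0.57 and 0.82 in WT and 0.29, 0.78 and 0.84 in KO. Against EGF medium the medians were 0.29, 0.54 and 0.76 in WT and 0.38, 0.43 and 0.73 in KO. In both genotypes the median was lowest in batch 1 and highest in batch 3. Between EGF and WR medium the medians ran from -0.17 in KO batch 1 to 0.33 in KO batch 2.

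**Figure D4:**
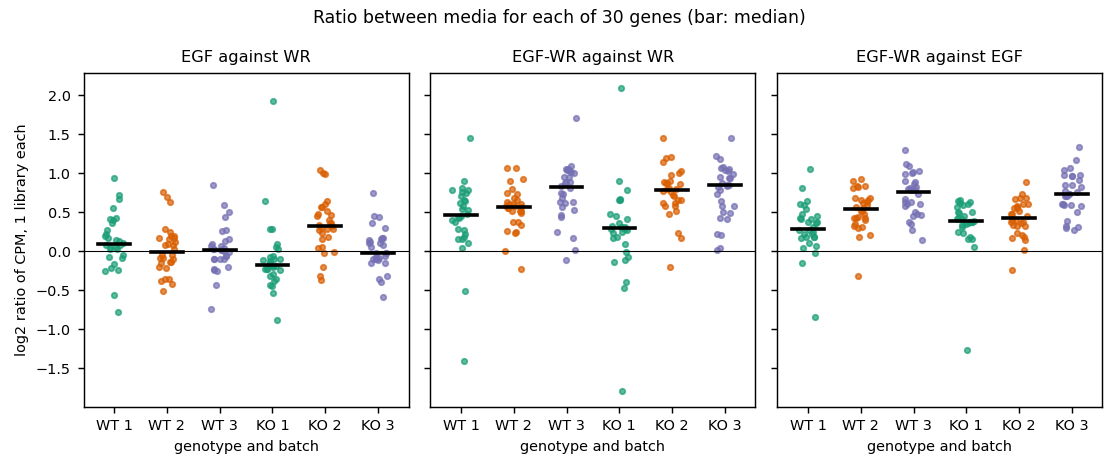
Log2 ratio of CPM between 2 libraries of the same batch and genotype for each of the 30 genes (points), with the median as a bar, for the 3 comparisons of media. The medians for EGF-WR medium lie above 0 in all 6 sets of both comparisons, from 0.29 to 0.84, and those for EGF against WR medium lie on either side of 0.

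Markers of other cells moved with the medium too. Of all tested genes, 11% were called higher and 11.9% lower in EGF-WR against WR medium. Against EGF medium the shares were 13.4% and 14.5%. The 12 fat cell markers summed to 394 to 2110 CPM in WR, 388 to 1370 CPM in EGF and 80.6 to 515 CPM in EGF-WR medium, and 11 of 12 were called lower in EGF-WR medium against WR medium, with Cidea called higher. Fibroblast markers summed to 2210 to 6060, 2820 to 6090 and 1390 to 3280 CPM in WR, EGF and EGF-WR medium, with 7 of 10 called lower against WR medium. Endothelial markers summed to 270 to 639, 293 to 467 and 84.9 to 222 CPM, with 8 of 8 called lower. The 8 myeloid markers summed to at most 157 CPM in any library, with 4 called lower. Against EGF medium 11 of 12 fat cell, 8 of 10 fibroblast, 8 of 8 endothelial and 3 of 8 myeloid markers were called lower, and 1 fibroblast marker, Fbln1, was called higher. Epithelial markers summed to 9360 to 12300 CPM in WR, 6530 to 10000 in EGF and 8030 to 10500 in EGF-WR medium. Against WR medium 4 of 10 were called higher and 4 lower, and against EGF medium 5 higher and 0 lower. Mean levels in WR and EGF-WR medium were 3030 and 2040 CPM for Krt5, 2930 and 1890 for Krt14, and 133 and 84.4 for Trp63. They were 1220 and 796 CPM for Krt19 and 1070 and 1000 for Cdh1. Means rose from 633 to 804 CPM for Krt8, 808 to 1190 for Krt18, and 338 to 410 for Elf5. They also rose from 793 to 1010 CPM for Epcam and 167 to 189 for Krt7. All 10 proliferation markers were called higher in EGF-WR than in EGF medium and 1 of 10 than in WR medium. Between EGF and WR medium 7 of the 10 were called lower in EGF medium, where 12.5% of all tested genes were. Their median log2 change was -0.38 in EGF against WR medium and 0.12 in EGF-WR against WR medium. The part of these shifts in the levels of the 30 genes was not tested.

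Other genes of sterol and fatty acid handling were read from lists of the pathway. Of 11 genes that carry, cleave or degrade the SREBP machinery, 5 were called higher and 1 lower in EGF against WR medium, where 25.5% of all tested genes were called. In EGF-WR medium 2 of 11 were called higher against WR medium (Erlin2 and Syvn1, both 1.16 to 1.17-fold) and 0 of 11 called higher and 2 lower against EGF medium. Scap, the escort protein itself, stood 0.055 ± 0.051 from WR medium and Insig2, the relative of Insig1, -0.12 ± 0.075, neither called. Of 10 genes of sterol uptake and trafficking, 6 were called higher and 2 lower against WR medium, and 4 higher and 3 lower against EGF medium. Beside the counts of both lists stand 11% of all tested genes called higher and 11.9% lower against WR medium. Against EGF medium the shares were 13.4% and 14.5%. Averaged over genotypes, Tmem97, a sterol-responsive membrane protein, and the lipoprotein receptors Scarb1 and Lrp8 were called higher against both media. Tmem97 was higher by 0.77 ± 0.13 against WR and 0.82 ± 0.13 against EGF. In KO batch 1 Scarb1 stood at 107 CPM in EGF-WR and 108 CPM in WR medium. Lrp8 stood there at 17.5 CPM in EGF-WR and 19.6 CPM in EGF medium. Vldlr, another lipoprotein receptor, and Lipa, the lysosomal lipase that frees cholesterol, were higher against WR (0.92 ± 0.19 and 0.84 ± 0.19) but also in EGF against WR medium (1.07 ± 0.19 and 1.07 ± 0.19).

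LXRs are nuclear receptors that switch on sterol export when sterol is high. Of 9 genes of LXR and sterol efflux, 0 were called higher and 5 lower in EGF-WR against WR medium. The shares of all tested genes there were 11% and 11.9%. Abcg1, a sterol exporter, ranged over 70.8 to 145 CPM in WR, 53.4 to 98.7 CPM in EGF and 23.8 to 52.6 CPM in EGF-WR medium (log2 change -1.52 ± 0.074, adjusted p = 3.02e-10). Apoe, a carrier of exported lipid, fell from 745 ± 193 to 310 ± 70.5 CPM (mean ± SD, n = 6; log2 change -1.25 ± 0.075, adjusted p = 5.05e-09). Abca1, another exporter (log2 change -1.12 ± 0.12, adjusted p = 1.14e-05), and Nr1h3, which encodes one of the LXRs (log2 change -0.92 ± 0.16, adjusted p = 5e-04), also fell. Nr1h2, which encodes the other, stood 0.043 ± 0.059 from WR medium, not called. Against EGF medium 4 of 9 were called lower and 1 higher, Cyp46a1, a sterol hydroxylase. There 14.5% of all tested genes were called lower and 13.4% higher. The level of Cyp46a1 was low, at 0.426 to 2.31 CPM in EGF and 1.15 to 3.03 CPM in EGF-WR medium. Macrophages and fat cells express several genes of this list, and the fat cell and myeloid markers given above were lower in the same libraries. Their part was not tested.

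Further fatty acid genes were mixed. Of 15 tested, 9 were called higher and 1 lower against WR medium, and 5 higher and 1 lower against EGF medium. The shares of all tested genes were 11% and 11.9% against WR medium, and 13.4% and 14.5% against EGF medium. Thrsp, a small protein tied to lipid synthesis, rose 4-fold against WR, from 2.61 to 5.28 CPM to 7.49 to 21 CPM (log2 change 2.00 ± 0.28, adjusted p = 6.61e-05). Acacb, the second acetyl-CoA carboxylase, rose against EGF medium (log2 change 1.24 ± 0.17, adjusted p = 3.8e-05), and Slc25a1, which exports citrate from mitochondria to the cytosol, rose against both (0.43 ± 0.072 and 0.41 ± 0.072). Acsl1, which activates fatty acids and is abundant in fat cells, fell against WR medium (log2 change -1.11 ± 0.15, adjusted p = 0.000184). Acss2, which makes acetyl-CoA from acetate, stood at -0.52 ± 0.23 against WR medium and was not called.

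**Figure D5:**
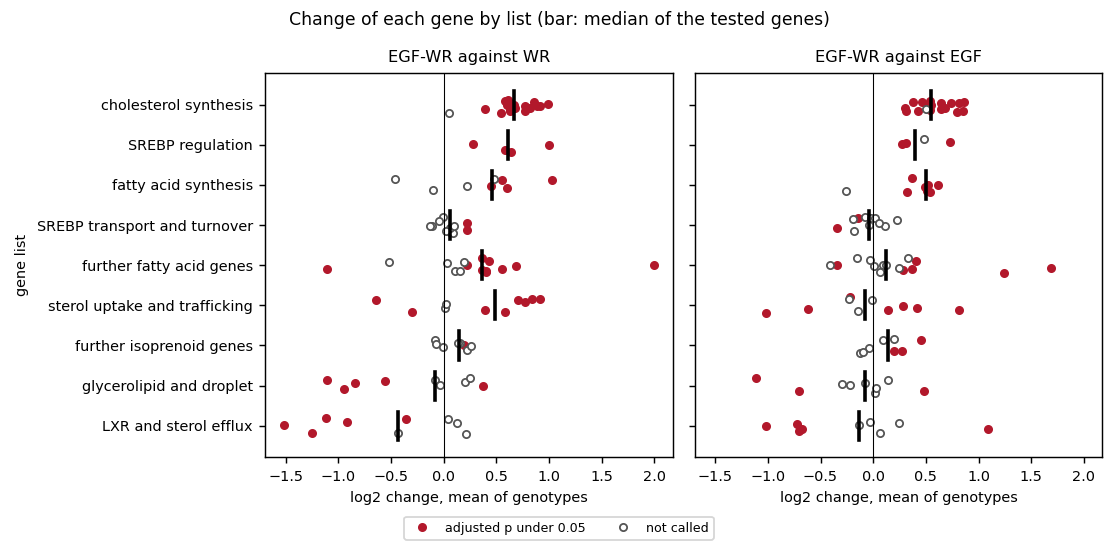
Log2 change of each gene (points) in EGF-WR against WR medium (left) and against EGF medium (right), averaged over WT and KO, by gene list, with the median of the tested genes as a bar. The first 3 lists are the 30 genes described here, whose points lie right of 0 except Scd1 in both panels and Fads2 in the left one, and the list of LXR and sterol efflux has 5 called genes left of 0 in the left panel.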

How the data were processed

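RNA of 18 organoid cultures was sequenced as single-end 50-base reads. The authors deposited whole-number read counts per gene, and per the submitters' processing notes STAR, DESeq2 and GRCm38 were used. Not given in the sources used here are the counting tool, the annotation release, all versions and the strand setting, so antisense reads cannot be told apart. The 36 columns of the authors' normalized values per library were not used. Positions and symbols come from the deposited table.

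Counts were fitted in edgeR 4.0.16 (R 4.3.3) with TMM factors, filterByExpr (minimum count 10, minimum total 15) and robust quasi-likelihood F-tests, two-sided. One fit held all 18 libraries, 6 group means and the batch, which equals the replicate number. A gene is called at a Benjamini-Hochberg adjusted p under 0.05 over all 17092 tested genes in each of 16 contrasts. Levels are CPM and changes are log2 values with their SE. With 3 libraries against 3 an exact permutation test cannot go below p = 0.1. The script was also run on simulated data, and the outcome of that run is not given here. The series describes the replicates as biological.

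The batch numbers pair the libraries, per the labels. Deviations from the group means correlated at 0.17 to 0.45 in all 45 pairs of the same batch. In 90 pairs of different batch and different group they correlated at -0.29 to -0.0049. Deviations within a group cancel out, so positive values within batches force negative ones between batches. The second range is thus no further support for the pairing.

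The members and all gene lists were chosen with earlier results of these data known, as was the choice of batch in the fit. Values in every library are given for the 4 regulators, the 5 largest called changes in each comparison of media, and the pairs Scd1/Scd2 and Fads1/Fads2. Some other genes of these pathways are not analysed here. Alternatives were the fit without the batch, DESeq2 1.42.0 size factors, upper-quartile factors, no filter, 1 CPM in 9 libraries, the DESeq2 Wald test, and leaving out each batch or library. Gene lengths and shared 50-base stretches come from a GENCODE annotation of GRCm38. Promoter windows come from RefSeq.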

Additional observations from a re-analysis of the deposited data

How the results depend on the processing

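The replicate block, here the batch, changed most. Without it the count of the 30 genes called, averaged over genotypes, went from 6 to 2 between EGF and WR medium, from 25 to 14 for EGF-WR against WR, from 27 to 11 for EGF-WR against EGF and from 23 to 10 for both. In WT the 3 counts became 0, 2 and 1 and in KO 0, 2 and 0. In the comparisons averaged over genotypes, all of the 30 genes called without the block were also called with it, and the log2 change of Idi1 between EGF and WR medium turned to -0.023. DESeq2 size factors, upper-quartile factors, no filter on low counts, the 1 CPM filter and the DESeq2 Wald test kept all counts within 1.5 times, except that without the filter 3 instead of 5 genes were called between EGF and WR medium in KO. Leaving out 1 library or 1 batch gave 4 to 7, 21 to 27 and 16 to 29 genes in the 3 comparisons averaged over genotypes, and 14 to 26 for both. It gave 2 to 5, 8 to 23 and 4 to 24 in WT and 2 to 5, 9 to 25 and 3 to 23 in KO. The counts for KO against WT and for the interactions were 0 in every setting. These settings were followed for the 30 genes only, not for the calls of the other gene lists and the markers. Of the genes named, the sign between EGF and WR medium changed when a library or batch was left out for Srebf1 (-0.17 to 0.044), Idi1 (-0.28 to 0.41), Mvd (-0.065 to 0.16), Lss (-0.030 to 0.098), Scd1 (-0.33 to 0.036) and Fads1 (-0.21 to 0.030), none of them called with all libraries. In EGF-WR against WR medium it changed for Fads2 (-0.26 to 0.087) and Scd1 (-0.91 to 0.067), and against EGF medium for Scd1 (-0.63 to 0.046). The cause was not tested. The 30 genes had a median level of 109.5 CPM, and the part of depth in the calls lost was not tested.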

Other observations

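Genes that build or store glycerolipids did not share the pattern of the synthesis genes. Of 9 tested, 1 was called higher and 4 lower in EGF-WR against WR medium, and 1 higher and 2 lower against EGF medium. The shares of all tested genes were 11% and 11.9% against WR medium, and 13.4% and 14.5% against EGF medium. Xdh, an oxidase that is also a coat protein of milk fat droplets, rose against WR (log2 change 0.37 ± 0.068, adjusted p = 0.000612) and EGF medium (log2 change 0.48 ± 0.068, adjusted p = 6.27e-05). Dgat2, which completes triglyceride synthesis, fell against both (log2 change -0.84 ± 0.10, adjusted p = 1.07e-05 and log2 change -1.11 ± 0.10, adjusted p = 1.37e-06). Btn1a1, a partner of Xdh on the droplet, fell against WR medium (log2 change -1.10 ± 0.25, adjusted p = 0.00717). Agpat2, an acyltransferase that is abundant in fat, fell against WR by -0.95 ± 0.19. The fat cell markers fell in the same comparisons, with 11 of 12 called lower against either medium, and their part was not tested.

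Genes that use isoprenoid diphosphates for purposes other than cholesterol changed less. Of 8 tested, 1 was called higher against WR medium, Fntb, a subunit of the farnesyltransferase (log2 change 0.20 ± 0.064, adjusted p = 0.033), and 3 were called higher against EGF medium. Those were Coq2 and Pdss1, which serve coenzyme Q synthesis (0.27 ± 0.067 and 0.45 ± 0.16), and Dhdds, which serves dolichol synthesis (0.20 ± 0.054). Of all tested genes 11% were called higher against WR medium and 13.4% against EGF medium. The median log2 change of the 8 genes was 0.14 against WR and 0.15 against EGF medium, where that of the 18 cholesterol genes was 0.67 and 0.54. This difference between lists was not tested.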
